A study of Mus musculus with 6 samples.

Results

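A set of 9 genes of the canonical Wnt pathway was followed through 6 RNA-sequencing libraries of mouse F9 teratocarcinoma cells: the ligands Wnt3 and Wnt3a, beta-catenin itself (Ctnnb1), the DNA-binding factors Tcf7, Tcf7l1 and Lef1, and the target genes Axin2, Sp5 and Dkk1. They were picked by symbol and are 9 of the 25904 genes in the deposited table. F9 cells are embryonal carcinoma cells that resemble early embryonic stem cells and turn into endoderm-like cells in retinoic acid (RA). Cells expressed a short hairpin RNA against green fluorescent protein (shGFP, the control line), against Ctbp2 (shCtbp2) or against Rxr (shRxr), and each line was harvested without treatment (UT) or after 48 hours in 1 µM all-trans RA. All 6 groups therefore carried a hairpin and grew in charcoal-stripped serum, and each group had 1 library of 9955808 to 13322506 counted reads. The labels name neither replicate cultures nor the number of clones behind a line, so every line is 1 sample per treatment.

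Wnt proteins are lipid-modified signals that bind Frizzled receptors together with Lrp5 or Lrp6. Binding stops a complex of Axin, Apc, Gsk3 and casein kinase from sending beta-catenin for destruction, and beta-catenin then enters the nucleus and joins TCF/LEF factors at its target genes. Tcf7l1 mostly represses those genes in pluripotent cells, Tcf7 and Lef1 mostly activate them, and Ctbp2 belongs to a family of corepressors that some TCF factors recruit; Wnt3 and Wnt3a act in the early embryo at the primitive streak.

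Promoter sequences are shown for the ligands Wnt3 and Wnt3a, whose normalised levels were above UT in RA in each line. Those of Sp5 and Dkk1 are shown because a TCF core motif was found before their RefSeq start. Dkk1 and Tcf7l1 were also higher in RA in each line, and the Tcf7l1 promoter is not shown. Sp5 had 2 reads in each shRxr library. The sequences are RefSeq's (GRCm38.p6) bases before the annotated transcription start, 5′ to 3′ on the gene's strand. Capitals mark the motif, searched as CTTTGAA or as CTTTGAT. The Sp5 promoter lies at chr2:70474673-70474922 (plus strand), the site before Dkk1 at chr19:30549595-30549624 (minus), the Wnt3 promoter at chr11:103773925-103774149 (plus) and the Wnt3a promoter at chr11:59290753-59291001 (minus).
Sp5: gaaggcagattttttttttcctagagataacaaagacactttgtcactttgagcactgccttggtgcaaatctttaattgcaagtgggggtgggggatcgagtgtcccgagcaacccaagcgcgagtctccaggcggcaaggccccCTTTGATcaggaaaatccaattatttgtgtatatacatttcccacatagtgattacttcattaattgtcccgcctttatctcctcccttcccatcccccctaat
Dkk1: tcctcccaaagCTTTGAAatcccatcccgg
Wnt3: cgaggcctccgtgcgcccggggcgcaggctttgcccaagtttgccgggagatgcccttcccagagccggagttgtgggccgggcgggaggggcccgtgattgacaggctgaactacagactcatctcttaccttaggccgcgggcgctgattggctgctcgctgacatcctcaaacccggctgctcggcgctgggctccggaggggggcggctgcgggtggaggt
Wnt3a: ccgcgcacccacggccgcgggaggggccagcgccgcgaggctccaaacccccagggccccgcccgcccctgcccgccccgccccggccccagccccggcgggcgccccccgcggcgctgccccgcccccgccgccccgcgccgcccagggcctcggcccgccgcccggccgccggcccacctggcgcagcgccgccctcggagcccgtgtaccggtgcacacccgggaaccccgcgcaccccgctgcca
Only the site is shown for Dkk1. The 169 bases of its window nearest the RefSeq start lie in an exon annotated by GENCODE, and the site shown is among them. Bases in exons were trimmed from Wnt3 (25) and Wnt3a (1). The last base of the core lay 98 bases before the start of Sp5 and 111 bases before that of Dkk1. Of 14 promoter windows of 250 bases annotated for the 9 genes, 2 held the core on either strand, against 7.48% of all 32851 windows. The half-site of the retinoic acid receptor, searched as AGGTCA or as GGGTCA or as GGTTCA on both strands, was in 1 window each of Ctnnb1, Tcf7 and Dkk1, 3 windows in all, against 30.4% of all windows. The DR5 element, a direct repeat of such half-sites, was in 0 of the 14, against 0.0883% of all. These matches are letters in a window and not measured binding, and the motifs and the promoters printed were chosen after the genes' values were known.

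Before the members, the libraries themselves need describing. Ctbp2 stood at 1811 and 701 normalised reads (reads per 10000000 counted) in shGFP UT and RA, at 210 and 55.4 for shCtbp2 and 1632 and 1132 for shRxr. Rxra stood at 520 and 805 in shGFP, 372 and 821 for shCtbp2 and 73.6 and 82.4 for shRxr, so shCtbp2 was the lowest line for Ctbp2 and shRxr the lowest for Rxra at both treatments. The labels do not say which Rxr gene the hairpin targets. The 7 F9 stem cell markers summed to 47585 to 49164 in UT, and in RA to 18716 in shGFP, 46661 in shCtbp2 and 35628 in shRxr. Within the shCtbp2 sum Pou5f1 went from 18524 to 26185 and Dppa5a from 4940 to 8488, while Zfp42 went from 8730 to 2129, Sox2 from 4616 to 1597 and Tdgf1 from 2261 to 594. The 8 endoderm markers summed to 3394 to 5335 in UT and 8698 to 17945 in RA. Markers of primitive streak and mesoderm summed to 229 to 534 (almost all Eomes; T stayed at 5.25 or below), those of fibroblasts to 28.1 to 143 (mostly Thy1 and Col1a1, with Dcn and Col3a1 at 2.01 or below) and those of blood to 69.5 to 131 (mostly Cd68, with Ptprc, Lyz2 and Hba-a1 at 1.67 or below). Genes rich in G and C were high in shCtbp2 RA: a gene's deviation from its mean over libraries had a Spearman correlation with GC content of 0.65 there and 0.25 in shGFP RA, against -0.44 to -0.40 in the other 4, over 12133 genes of these shared libraries. The part of cell makeup in the results that follow was not tested, and that of GC content was examined only by refitting after a correction of each library for GC content and length. In bulk RNA, fewer cells of a type and less RNA per cell cannot be told apart.

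The RA comparison asks how 48 hours of RA changed the pathway. Both ligands were higher in RA in every line, Dkk1 had at most 4 reads in UT and 17 to 57 in RA, and neither Axin2 nor Ctnnb1 nor Tcf7 moved one way in all lines. The effect was fitted over the 3 lines with limma on log2(value + 10), for the 12332 genes whose mean reached 20 normalised reads. Wnt3, Wnt3a, Axin2, Tcf7, Tcf7l1 and Ctnnb1 passed that minimum, while Lef1, Sp5 and Dkk1 did not. Of the 6 tested, 2 rose (Wnt3a and Wnt3) and 0 fell, where 10.8% of all tested genes rose and 4.63% fell at an adjusted p under 0.05. At an unadjusted p under 0.05 the shares were 3 of the 6 (Tcf7l1 besides) and 31% of all. The median effect of the 6 was 0.30 on the log2 scale against 0.07 over all tested genes, and -0.02 against 0.01 after the GC and length correction. Wnt3 and Wnt3a reached the minimum only through their RA libraries, with 12.4 to 21.7 and 7.25 to 24.0 normalised reads in UT. These counts and the median of the 6 are therefore no measure of the members. With no minimum level 2 of the 9 rose (Wnt3a and Dkk1) and 0 fell, beside 1248 and 480 of 23886 genes. The median of all 9 was then 0.55 against 0.01.

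Wnt3a (ENSMUSG00000009900, mm9 chromosome 11, 59061535 to 59104254) encodes a classical activator of beta-catenin. It was counted at 7.25 normalised reads in shGFP UT and 34.5 in shGFP RA, at 24.0 and 148 for shCtbp2 and 11.7 and 50.2 for shRxr. Each RA library lay above all 3 UT libraries, and shCtbp2 was the highest line at both treatments. It was 4.76-fold higher in RA in shGFP (95% interval 2.30 to 11.1), 6.19-fold in shCtbp2 (4.14 to 9.56) and 4.29-fold in shRxr (2.33 to 8.40). These intervals are exact binomial ones from the reads of a pair of libraries and cover counting error only. The limma effect of RA was 1.69 (SE 0.31, n = 6 libraries, adjusted p = 0.003). After the GC and length correction it was 1.26 (adjusted p = 0.011). Without the shCtbp2 line it was 1.42 (adjusted p = 0.055). Leaving out 1 shCtbp2 library gives the same effect, because the library left is matched by its line's own term.

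Wnt3 (ENSMUSG00000000125, chromosome 11, 103635464 to 103679271) encodes the ligand that mouse embryos need to form a primitive streak. It had 21.7 normalised reads in shGFP UT and 58.5 in shGFP RA, 12.4 and 27.7 for shCtbp2 and 12.6 and 48.2 for shRxr. Its RA libraries also lay above all UT libraries, but here shGFP was the highest line and shCtbp2 the lowest in RA. The RA folds were 2.69 (1.72 to 4.34), 2.23 (1.15 to 4.50) and 3.84 (2.11 to 7.38) in shGFP, shCtbp2 and shRxr. The limma effect was 1.08 (SE 0.30, adjusted p = 0.03). It lost its call with no minimum level (adjusted p = 0.076), after correction for GC content and length (0.80, adjusted p = 0.076), and without any 1 library except shRxr UT (adjusted p 0.053 to 0.31).

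Dkk1 (ENSMUSG00000024868, chromosome 19, 30620353 to 30624155) is both a beta-catenin target and a secreted inhibitor that occupies the coreceptors Lrp5 and Lrp6. It had 1, 4 and 3 reads in the UT libraries of shGFP, shCtbp2 and shRxr, or 0.805, 3.31 and 2.51 normalised reads, and 57, 43 and 17 reads in RA, or 42.8, 42.6 and 17.1 normalised reads. The RA libraries again stood clear of all UT libraries, with shRxr the lowest of them. The folds were 53.1 in shGFP (9.16 to 2135), 12.9 in shCtbp2 (4.68 to 49.3) and 6.80 in shRxr (1.97 to 36.2), all resting on UT counts of 4 reads or fewer. In the fit with no minimum level, limma gave Dkk1 an RA effect of 1.79 (SE 0.28, adjusted p = 0.0078).

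Sp5, a zinc finger factor that beta-catenin induces in the streak and in stem cells (ENSMUSG00000075304, chromosome 2, 70312980 to 70315786), was rare throughout. It had 2 and 17 reads in shGFP UT and RA, 5 and 12 for shCtbp2 and 2 and 2 for shRxr, which are 1.61 and 12.8, 4.14 and 11.9, and 1.67 and 2.01 normalised reads. Only the shGFP and shCtbp2 RA libraries reached 10 normalised reads. The RA fold was 7.92 in shGFP (1.88 to 70.7), 2.87 in shCtbp2 (0.942 to 10.4) and 1.20 in shRxr (0.0870 to 16.6), so an increase beyond counting error was seen only within shGFP. With no minimum level the limma effect of RA was 0.55 (adjusted p = 0.096).

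**Figure D1:**
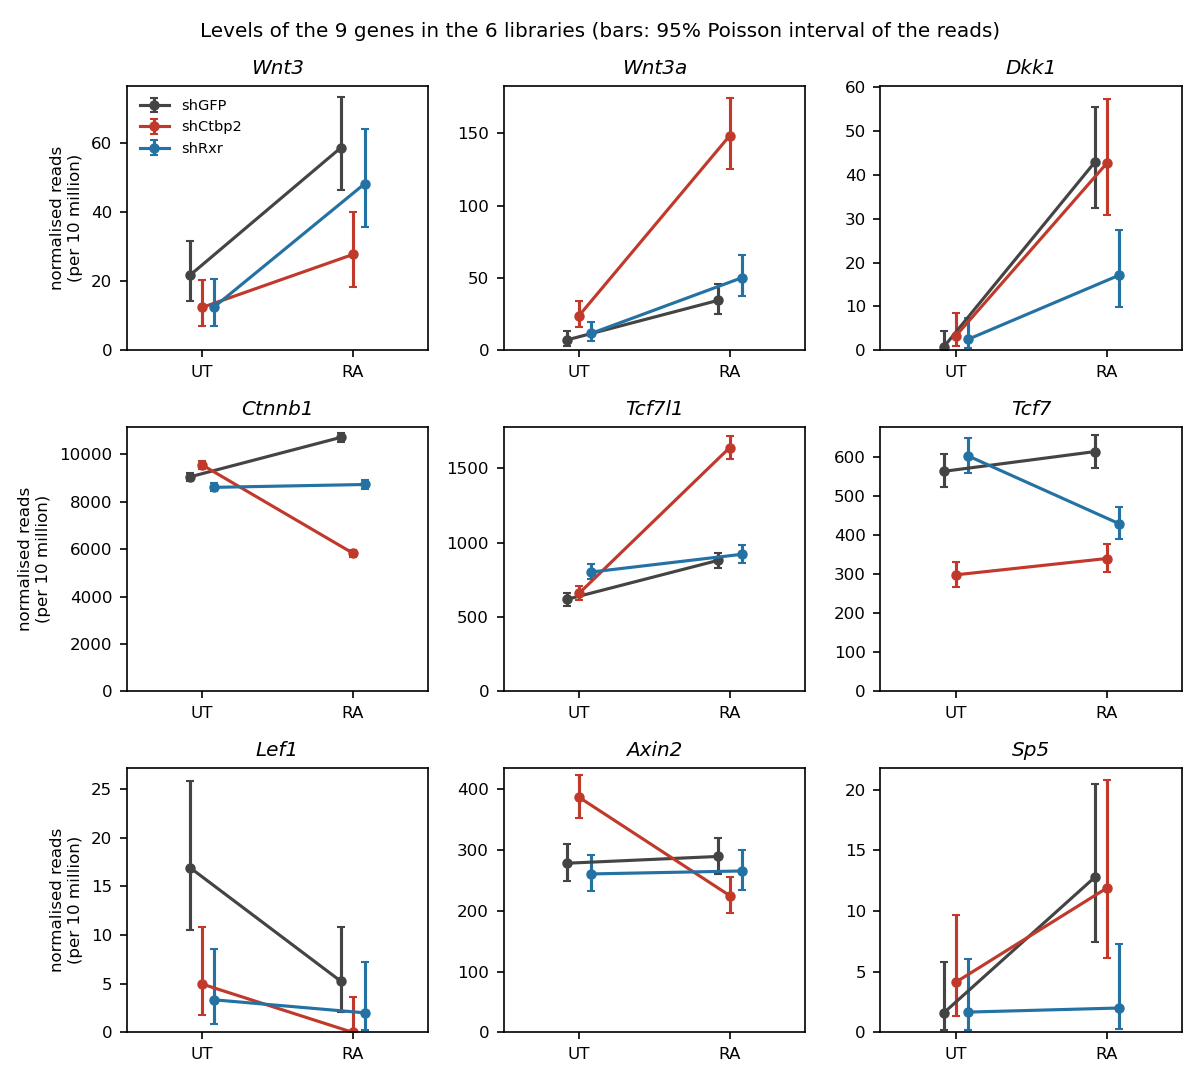
Normalised reads (per 10000000 counted) of the 9 genes, untreated (UT) and in RA, each panel with its own linear axis from 0; points are single libraries, lines join the libraries of a line, and bars are 95% Poisson intervals of the reads. Wnt3, Wnt3a, Dkk1 and Tcf7l1 have all 3 RA points above all 3 UT points, while Ctnnb1 and Axin2 fall with RA only in shCtbp2.

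Among all tested genes, 24.1% had their 3 RA libraries above their 3 UT libraries and 13.9% had them below. Of the 6 tested members, Wnt3, Wnt3a and Tcf7l1 had them above and none had them below. Wnt3 and Wnt3a passed the minimum only through RA, which favours this count and those that follow. Within a line, 2 of the 6 were at least 2-fold higher in RA on log2(value + 10) and 0 at least 2-fold lower. They were Wnt3a and Wnt3 in shGFP (13.4% of tested genes were that much higher and 7.07% lower), Wnt3a and Tcf7l1 in shCtbp2 (15.1% and 19.3%), and Wnt3a and Wnt3 in shRxr (5.26% and 1.46%). After the GC and length correction 0 of the 6 were that much higher in shGFP, 1 in shCtbp2 and 2 in shRxr. In shCtbp2 1 of the 6, Axin2, was then that much lower. For these corrected counts no share over all genes was taken.

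Axin2 (ENSMUSG00000000142, chromosome 11, 108781663 to 108812097), a scaffold of the destruction complex and the most widely used readout of beta-catenin activity, did not follow the ligands. It had 278 and 289 normalised reads in shGFP UT and RA, 386 and 225 for shCtbp2 and 260 and 265 for shRxr. The 4 libraries of shGFP and shRxr lay within 260 to 289, and shCtbp2 gave both the highest and the lowest value. Within shCtbp2 it was 1.72-fold lower in RA (1.46 to 2.02), and the RA fold was 1.04 in shGFP (0.897 to 1.21) and 1.02 in shRxr (0.861 to 1.20). The limma effect was -0.23 (SE 0.28, adjusted p = 0.62).

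Ctnnb1 (ENSMUSG00000006932, chromosome 9, 120838334 to 120869625) was by far the most abundant member, at 1123 to 2064 normalised reads per kb of exon. The other members lay at 417 per kb or below. Its levels were 9053 and 10717 normalised reads in shGFP UT and RA, 9555 and 5832 for shCtbp2 and 8609 and 8730 for shRxr. The shCtbp2 RA library was the lowest and the other 5 spanned 8609 to 10717. RA went with a 1.18-fold higher level in shGFP (1.15 to 1.21), a 1.64-fold lower one in shCtbp2 (1.59 to 1.69) and a 1.01-fold difference in shRxr (0.985 to 1.04). Over the lines the limma effect was -0.15 (SE 0.28, adjusted p = 0.75). These levels are of mRNA, whereas Wnt signalling acts on the stability of the protein, which was not measured.

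Tcf7l1 (ENSMUSG00000055799, chromosome 6, 72576372 to 72739248), the repressive TCF of pluripotent cells, had 619 and 880 normalised reads in shGFP UT and RA, 658 and 1638 for shCtbp2 and 802 and 921 for shRxr. All RA libraries were above all UT libraries, with shCtbp2 RA the highest. The RA folds were 1.42 (1.30 to 1.56) in shGFP, 2.49 (2.28 to 2.71) in shCtbp2 and 1.15 (1.05 to 1.26) in shRxr. The limma effect was 0.67 (SE 0.28, adjusted p = 0.13). Tcf7l1 is GC-rich, at 59.3% against a median of 50.1% over tested genes. After correction of each library for GC content and length its log2 RA difference went from 0.50 to 0.07 in shGFP, from 1.30 to 0.46 in shCtbp2 and from 0.20 to 0.13 in shRxr.

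Tcf7 (ENSMUSG00000000782, chromosome 11, 52065873 to 52096681), an activating TCF, had 562 and 612 normalised reads in shGFP UT and RA, 298 and 339 for shCtbp2 and 602 and 429 for shRxr. Both shCtbp2 libraries lay below all 4 others, among which shRxr RA was the lowest. The RA folds were 1.09 in shGFP (0.984 to 1.21) and 1.14 in shCtbp2 (0.980 to 1.33), and in shRxr Tcf7 was 1.403-fold lower in RA (1.24 to 1.59). The limma effect of RA was -0.06 (adjusted p = 0.91). After the GC and length correction the log2 RA difference in shCtbp2 went from 0.18 to -0.32, and in shGFP from 0.12 to -0.14.

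Lef1 (ENSMUSG00000027985, chromosome 3, 130813389 to 130927274), an activating factor of the same family and itself a beta-catenin target, was close to the detection limit. It had 21 and 7 reads in shGFP UT and RA, 6 and 0 for shCtbp2 and 4 and 2 for shRxr, which are 16.9 and 5.25, 4.96 and 0, and 3.35 and 2.01 normalised reads. The shGFP UT library was the highest and each line had fewer reads in RA. The fall in RA was 3.22-fold in shGFP (1.32 to 8.96), at least 1.67-fold in shCtbp2 against a floor of 3 reads per library, and 1.67-fold in shRxr (0.239 to 18.4). With no minimum level the limma effect was -0.52 (adjusted p = 0.072).

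The wider pathway, 109 genes in 7 lists that include the 9 members, is given by role. Of the 100 that are not members, 68 were tested for RA, 20 rose and 7 fell, beside 10.8% and 4.63% of all tested genes. Their median effect was 0.46 against 0.07 over all tested genes. After the GC and length correction 20 rose and 13 fell, beside 1580 and 1278 of 12133 genes, with a median of 0.24 against 0.01. Some of the genes that rose reached the minimum only through their RA libraries, which favours the counts at that minimum. With no minimum level 18 of 97 rose and 5 fell, beside 1248 and 480 of 23886 genes, with a median of 0.36 against 0.01. The shares of all genes given here for each setting stand beside the RA counts of each list below. Of 19 Wnt ligands listed, 7 were tested, 6 rose (Wnt3 and Wnt3a among them) and 0 fell, with a median of 1.52. Several of the 6 reached the minimum only through their RA libraries, so this median is no measure of the list: over all 19, with no minimum level, it was 0.24 against 0.01 over all genes, with 5 raised and 0 lowered.

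Wnt8a had 3.22, 4.14 and 9.21 normalised reads in the UT libraries of shGFP, shCtbp2 and shRxr and 62.3, 52.5 and 47.2 in RA, a limma effect of 2.06 (SE 0.32, adjusted p = 0.00097). Wnt5b, mostly a ligand of beta-catenin-independent signalling, had 7.25, 4.96 and 5.86 in UT and 80.3, 50.5 and 36.2 in RA, an effect of 1.98 (SE 0.31, adjusted p = 0.0012). Wnt7b (1.52, adjusted p = 0.0043) and Wnt9a (1.38, adjusted p = 0.0091) rose as well. None of these 4 genes had UT and RA libraries that overlapped, where 24.1% of tested genes had all RA libraries above all UT libraries. Wnt8a, Wnt5b and Wnt7b reached the minimum only through RA, which favours that order. Wnt6 was the exception, with 161, 201 and 112 in UT and 48.8, 161 and 53.2 in RA, an effect of -0.93 that missed the threshold (SE 0.31, adjusted p = 0.058). Wnt9a is the neighbour of Wnt3a on mm9 chromosome 11, 16175 bases away with 0 annotated genes of the table between them. Wnt9b stands in the same relation to Wnt3 at 24328 bases, and had at most 4.50 normalised reads in any library.

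Per kb of exon, the 19 ligands summed to 128 and 205 normalised reads in shGFP UT and RA, 137 and 237 for shCtbp2 and 99.9 and 155 for shRxr. The sum was higher in RA in each line. Wnt6 was the most abundant ligand in the 3 UT libraries and in shCtbp2 RA, Wnt9a in shGFP RA and Wnt8a in shRxr RA. Wnt3a made up 2.05% of the summed ligand level in shGFP UT and 6.11% in shGFP RA, 6.36% and 22.7% for shCtbp2 and 4.25% and 11.7% for shRxr. It ranked 2 among the ligands in shCtbp2 RA, and 7 and 4 in the RA libraries of shGFP and shRxr.

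Porcn, the enzyme that attaches the lipid to Wnt proteins, rose with an effect of 1.60 (SE 0.27, adjusted p = 0.0018), from 377 to 731 normalised reads in UT to 1534 to 1596 in RA. Wls, the carrier that takes Wnt proteins to the cell surface, had 402 and 1455 in shGFP, 369 and 430 for shCtbp2 and 453 and 817 for shRxr (0.96, adjusted p = 0.056). In RA, then, Porcn varied little among the lines, while Wls was 3.39-fold lower in shCtbp2 than in shGFP.

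Among receptors and the R-spondin system, 5 of 19 tested genes (24 listed) rose and 0 fell, with a median of 0.46. Of the 5, 4 were Frizzled receptors. Fzd2 had 64.4, 21.5 and 46.0 normalised reads in the UT libraries of shGFP, shCtbp2 and shRxr and 626, 215 and 151 in RA, an effect of 2.48 (SE 0.33, adjusted p = 0.00041). Fzd4 had 25.8, 15.7 and 34.3 in UT and 340, 83.1 and 118 in RA, an effect of 2.22 (SE 0.35, adjusted p = 0.0012). Fzd1 (1.57), Fzd8 (1.21) and Ror2, a receptor of Wnt5-type ligands (1.21), made up the rest, with adjusted p of 0.0044, 0.031 and 0.011. With the GC and length correction, 5 receptors rose and 2 fell. Fzd1, at 20.1, 5.79 and 25.9 normalised reads in UT, reached the minimum mean only through its RA libraries. With no minimum level 4 of 24 receptor genes rose and 0 fell, with a median of 0.42 against 0.01.

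Secreted and membrane inhibitors split: of 17 listed and 8 tested, 2 rose and 2 fell, with a median of 0.40. Sfrp5, a decoy that binds Wnt proteins, rose (2.50, adjusted p = 0.001) and so did Dkk3, a Dickkopf relative (1.26, adjusted p = 0.016). Sfrp4 (-1.90, adjusted p = 0.0018) and Sfrp1 (-1.36, adjusted p = 0.0069) fell. Sfrp1 was the abundant one, at 3056 to 3620 normalised reads in UT and 863 to 2182 in RA. Dkk1 is in this list but was below the minimum.

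In the destruction complex list, 2 of 15 tested genes (16 listed) rose and 1 fell, with a median of 0.16. Apc2 (1.01, adjusted p = 0.041) and the kinase gene Csnk1e (0.91, adjusted p = 0.031) rose and the scaffold gene Apc fell (-1.19, adjusted p = 0.03). Apc had 2224 and 847 normalised reads in shGFP, 2035 and 472 for shCtbp2 and 2049 and 1896 for shRxr, so the size of its fall differed widely among the lines. Apc2, at 16.9, 15.7 and 13.4 in UT, reached the minimum only through RA. With no minimum level 1 of the 15 rose and 0 fell. After the GC and length correction 1 rose and 2 fell, with a median of -0.05 against 0.01. Of 17 nuclear factors and cofactors 16 were tested, 3 rose and 2 fell, with a median of 0.56. Tle2 (1.48), a Groucho corepressor, Pygo1 (1.22), a beta-catenin coactivator, and Aes (1.14), a short Groucho relative, rose with adjusted p of 0.0041, 0.013 and 0.018. Another Groucho gene, Tle4, fell (-1.07, adjusted p = 0.026), as did Ctbp2 (-1.21, adjusted p = 0.014), the gene that one of the hairpins targets. After the GC and length correction 3 of the 16 nuclear genes rose and 3 fell, with a median of 0.18 against 0.01.

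The beta-catenin target list went both ways, with 3 of 12 tested genes (22 listed) up and 2 down and a median of -0.14. Cdx1, a caudal homeobox gene that both Wnt and RA are known to induce, had 12.9, 14.1 and 60.3 normalised reads in the UT libraries of shGFP, shCtbp2 and shRxr and 1000, 1542 and 763 in RA. Its effect was 4.98 (SE 0.40, adjusted p = 1.3e-05). Tnfrsf19 (1.89, adjusted p = 0.00086) and the feedback inhibitor Nkd1 (1.36, adjusted p = 0.0094) also rose. Ccnd1, a cyclin of the G1 phase (-1.47, adjusted p = 0.0021), and Myc (-1.25, adjusted p = 0.0081) fell, in all 3 lines without overlap. Of all tested genes 13.9% had their RA libraries below all UT libraries. Axin2 and Tcf7, the members tested in that list, had effects of -0.23 and -0.06. With no minimum level all 22 targets had a median of 0.21, of the opposite sign. After the GC and length correction 3 of the 12 tested targets rose and 4 fell, with a median of -0.43 against 0.01. The lists held 29 calls for RA, members included. With no minimum level the calls of Wnt3 (adjusted p = 0.076), Wnt9a (0.05), Fzd8 (0.11), Dkk3 (0.073), Apc (0.066), Apc2 (0.092), Pygo1 (0.063) and Tle4 (0.053) were lost. A minimum mean of 100 ended those of Apc (0.063), Csnk1e (0.054) and Tle4 (0.053), the GC and length correction ended that of Apc2 (0.09) besides Wnt3, and a pseudocount of 50 ended that of Apc2 (0.052). Of the 29, 20 were lost without the shGFP line and 15 without the shCtbp2 line. Wnt5b, Wnt8a, Fzd2, Fzd4, Sfrp4, Sfrp5 and Cdx1 were among those that kept their call whichever line was left out. Leaving out 1 library is no separate check of the RA effect, because the library left is matched by its line's own term.

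**Figure D2:**
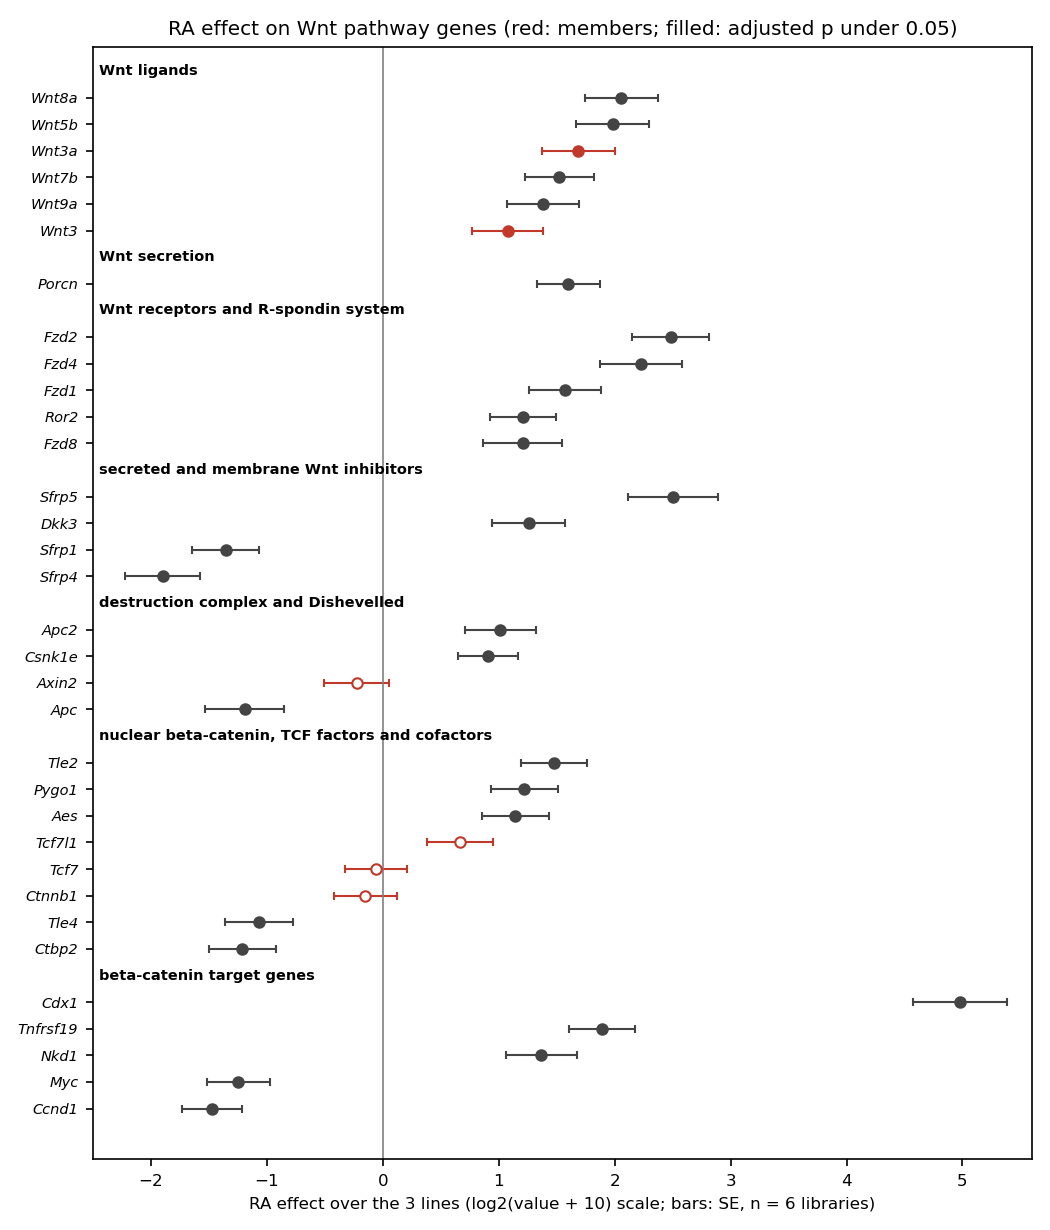
RA effect over the 3 lines from limma, on the log2(value + 10) scale, for the tested members (red) and for the genes of the 7 lists that passed the test; points are fitted effects, bars are 1 SE from 6 libraries, and filled points had an adjusted p under 0.05. Wnt3a (1.69) and Wnt3 (1.08) are filled, while Tcf7l1, Tcf7, Axin2 and Ctnnb1 are open.

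The Ctbp2 comparison asks what the hairpin against this corepressor changed in untreated and in RA-treated cells. Wnt3a was higher and Wnt3 and Tcf7 lower in shCtbp2 than in shGFP at both treatments, while Axin2, Ctnnb1 and Tcf7l1 differed mainly in RA or changed direction between the treatments. In the limma fit over both treatments 0 of 6 tested members rose and 0 fell, where 0.105% of all tested genes rose and 0.0405% fell (8.85% in either direction at an unadjusted p under 0.05, which 2 of the 6, Wnt3a and Tcf7, also reached). Limma with voom on the recovered reads called 0 of the 6 as well. The effects were 1.405 for Wnt3a (SE 0.38, unadjusted p = 0.0027, adjusted p = 0.19), -0.86 for Tcf7 (SE 0.33, adjusted p = 0.44) and -0.68 for Wnt3 (SE 0.37, adjusted p = 0.65). Those of Tcf7l1 (0.49), Ctnnb1 (-0.40) and Axin2 (0.06) had adjusted p of 0.69, 0.71 and 0.96. The Wnt3a effect passed the threshold when either shRxr library or shCtbp2 UT was left out, in fits that also called many more of all genes. Leaving out either shRxr library gives the same effect, so these are not separate checks. Without shCtbp2 UT the effect was 1.81 and rests on 1 shCtbp2 library.

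Between single libraries, Wnt3a was 3.31-fold higher in shCtbp2 than in shGFP in UT (1.53 to 7.95) and 4.30-fold higher in RA (3.07 to 6.12). It was the 1 member of the 6 tested that differed by 2-fold or more on log2(value + 10) in RA (after the GC and length correction Wnt3 and Tcf7 were also that much lower), where 3.18% of tested genes were that much higher and 14.8% that much lower. In UT, 0 of the 6 did, against 1.39% and 2.34% of all. Wnt3 was 2.11-fold lower in RA (1.36 to 3.38) and 1.75-fold lower in UT (0.900 to 3.54), the second within counting error. So the pair of ligands, both higher in RA in each line, stood on opposite sides of shGFP in shCtbp2. After the GC and length correction the log2 difference in RA was 1.38 for Wnt3a, in place of 1.83, and -1.09 for Wnt3, in place of -0.86.

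Tcf7 was 1.89-fold lower in shCtbp2 in UT (1.66 to 2.15) and 1.80-fold lower in RA (1.59 to 2.05). Both shCtbp2 libraries lay below all 4 others for Tcf7, as they did for 10.6% of tested genes. For none of the 6 tested members did both lie above all others (6.99% of tested genes). Lef1 was 3.41-fold lower in UT (1.33 to 10.3) and at least 1.77-fold lower in RA, again against 3 reads. Tcf7l1 was 1.86-fold higher in RA (1.73 to 2.01) and 1.06-fold higher in UT (0.963 to 1.18).

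The ratio of Tcf7l1 to Tcf7, each per kb of exon, puts these values together. It was 0.736 in shGFP UT (95% interval 0.663 to 0.817) and 0.961 in shGFP RA (0.878 to 1.05), 1.48 (1.30 to 1.68) and 3.23 (2.87 to 3.64) in shCtbp2, and 0.891 (0.808 to 0.983) and 1.44 (1.28 to 1.62) in shRxr. RA gave the higher ratio in each line and shCtbp2 the highest of the lines at both treatments. The intervals of shCtbp2 UT and shRxr RA overlapped, and that of shRxr UT overlapped those of both shGFP libraries. The 2 genes differ in GC content (59.3% for Tcf7l1 and 52.3% for Tcf7), and the high ratio coincides with the library in which GC-rich genes were high.

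**Figure D3:**
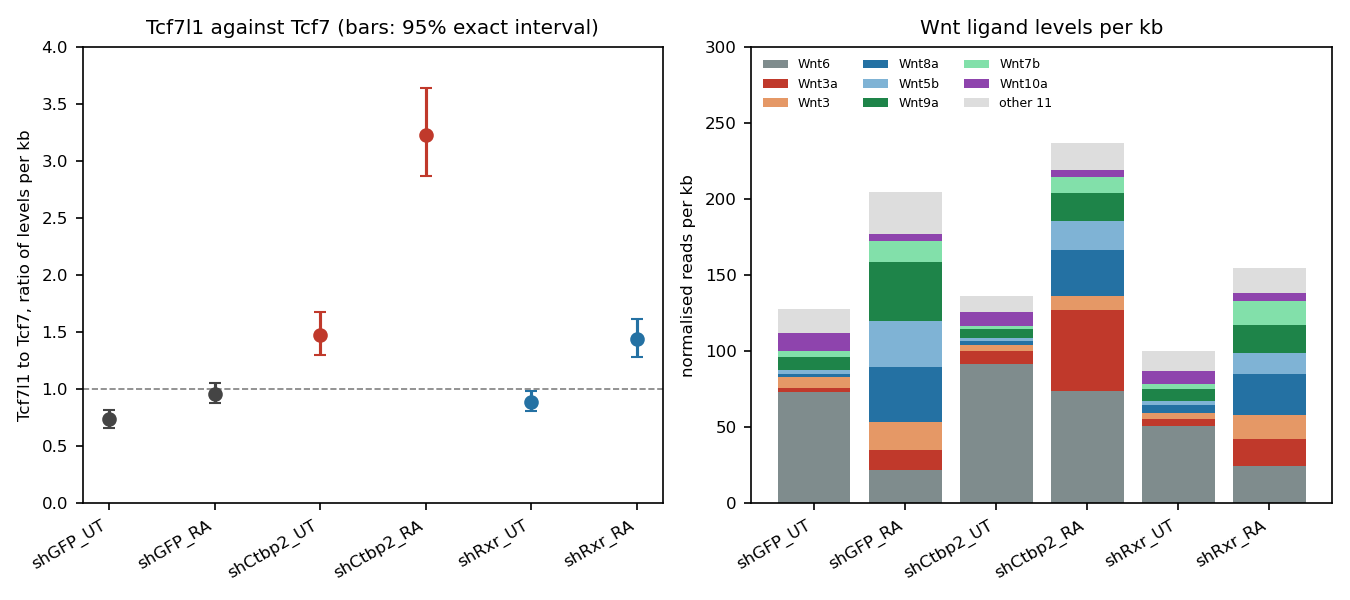
Left, the ratio of Tcf7l1 to Tcf7 in each library, from normalised reads per kb of exon on a linear axis, with 95% exact intervals of the reads; right, stacked normalised reads per kb of the 19 Wnt ligands, with 8 named and the other 11 summed in light grey. The ratio is 3.23 in shCtbp2 RA, and the red Wnt3a segment is 22.7% of the ligands in that library.

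Axin2 was 1.39-fold higher in shCtbp2 than in shGFP in UT (1.21 to 1.60) and 1.29-fold lower in RA (1.09 to 1.52). Ctnnb1 was 1.06-fold higher in UT (1.03 to 1.08) and 1.84-fold lower in RA (1.78 to 1.89). For Ctnnb1 the difference in RA was -0.88 on the log2 scale, and -0.69 after the GC and length correction, at a GC content of 50.3%. Dkk1 in RA was 1.01-fold lower (0.665 to 1.53) and Sp5 1.07-fold lower (0.484 to 2.47), so for both no difference was detectable at this depth.

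The RA response of shCtbp2 minus that of shGFP was 0.85 for Wnt3a, 0.80 for Tcf7l1, 0.06 for Tcf7, -0.36 for Wnt3, -0.81 for Axin2 and -0.95 for Ctnnb1 on the log2 scale. None of the 6 reached 1 in size, where 2.72% of tested genes reached 1 and 12.4% reached -1. With 1 library per group the difference between responses cannot be tested.

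Around the members, 10 of the 19 tested receptor genes were at least 2-fold lower on log2(value + 10) in shCtbp2 RA than in shGFP RA and 0 at least 2-fold higher. Of all tested genes 14.8% were that much lower and 3.18% higher. The median of the receptors was -1.06 against -0.19 over all tested genes. Corrected for GC content and length, 5 receptors were that much lower and 0 higher, with a median of -0.69 against -0.01. For the corrected counts of this comparison, those of receptors, ligands and members, no share over all genes was taken. As plain folds of normalised reads, Fzd4 was 4.09-fold lower (3.23 to 5.23), the R-spondin receptor gene Lgr4 3.26-fold lower (2.89 to 3.69), Fzd2 2.92-fold lower (2.51 to 3.40) and the coreceptor gene Lrp6 2.89-fold lower (2.60 to 3.22). Lgr4 and Lrp6 had 1058 and 1272 normalised reads in shGFP RA and 325 and 439 in shCtbp2 RA, against 857 and 1827 in shRxr RA. Of the 7 tested ligands, Wnt6 (3.31-fold, 2.47 to 4.48) and Wnt3a were at least 2-fold higher on log2(value + 10) and 0 were that much lower, against 2 and 3 after the correction. Wls was 3.39-fold lower (3.05 to 3.77), but no longer 2-fold lower on log2(value + 10) after the correction. The median of the target list was -0.57, with Tnfrsf19 2.19-fold lower (1.97 to 2.43). Scaling the libraries to equal upper quartiles moved the median of all genes in this comparison from -0.19 to 0.04.

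The Rxr comparison asks the same of the hairpin against the retinoid X receptor, the partner with which RA receptors bind DNA. It uses the same shGFP libraries as the Ctbp2 comparison, so the values are set side by side only. Of the 6 tested members 0 rose and 0 fell in limma (all adjusted p of 1), where 0% of tested genes rose, 0.00811% fell and 1.23% had an unadjusted p under 0.05 (0 of the 6). With voom 0 of the 6 were called. The effects ran from -0.36 for Wnt3 to 0.38 for Wnt3a.

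In RA, Dkk1, Sp5, Tcf7 and Ctnnb1 were lower in shRxr than in shGFP beyond counting error, and the ligands were not. Dkk1 was 2.51-fold lower than in shGFP (1.44 to 4.59) and Sp5 was 6.35-fold lower (1.51 to 56.7), the latter on 17 against 2 reads. Wnt3a was 1.45-fold higher (0.955 to 2.22) and Wnt3 1.21-fold lower (0.837 to 1.78), both within counting error. Tcf7 was 1.43-fold lower in RA (1.27 to 1.61) and 1.07-fold higher in UT (0.963 to 1.19). Ctnnb1 was 1.23-fold lower in RA (1.20 to 1.26), Axin2 1.09-fold lower (0.929 to 1.28) and Tcf7l1 1.05-fold higher (0.959 to 1.14). On log2(value + 10), 0 of the 6 tested members differed by 2-fold, against 3.74% of tested genes higher and 2.62% lower. Their median difference was -0.18 against -0.07 over all tested genes, and 0.03 against -0.01 after the GC and length correction.

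The RA response of shRxr minus that of shGFP was 0.26 for Wnt3, 0.10 for Wnt3a, -0.03 for Axin2, -0.22 for Ctnnb1, -0.30 for Tcf7l1 and -0.60 for Tcf7 on the log2 scale. None of the 6 reached 1 in size, as 5.6% of tested genes did upward and 4.47% downward, and again no test of these differences was possible. A gene's deviation from its mean correlated with GC content at 0.25 in shGFP RA and at -0.42 in shRxr RA. After the GC and length correction the RA responses of Tcf7l1 and Axin2 were higher in shRxr than in shGFP. Those of Tcf7 and Ctnnb1 were still lower. For 0 of the 6 did both shRxr libraries lie below all others (3.23% of tested genes) or above them (3.61%).

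In UT, Lef1 was 5.05-fold lower in shRxr than in shGFP (1.70 to 20.2) and Tcf7l1 was 1.30-fold higher (1.18 to 1.43). The other untreated differences were 1.05-fold for Ctnnb1, which was lower (1.02 to 1.08), and within counting error for Wnt3, Wnt3a, Axin2, Tcf7, Sp5 and Dkk1. In that comparison a difference of 2-fold or more was reached upward by 0.389% and downward by 0.0649% of all tested genes.

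Among receptors in RA, 3 of 19 were at least 2-fold lower on log2(value + 10) in shRxr than in shGFP and 0 were higher. Of all tested genes 2.62% were that much lower and 3.74% higher. The median of the receptors was -0.35 against -0.07. The 3 lower ones were Fzd2 (4.15-fold, 3.49 to 4.98), Fzd8 (3.22-fold, 2.39 to 4.42) and Fzd4 (2.89-fold, 2.36 to 3.58), all genes that rose with RA over the lines. Apc was 2.24-fold higher (2.08 to 2.41). After the GC and length correction its difference was below 2-fold on log2(value + 10). Cdx1 was 4.68-fold higher in shRxr in UT (2.69 to 8.61), and its RA fold was 12.7 in shRxr (9.94 to 16.4) against 77.6 in shGFP (47.6 to 136).

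**Figure D4:**
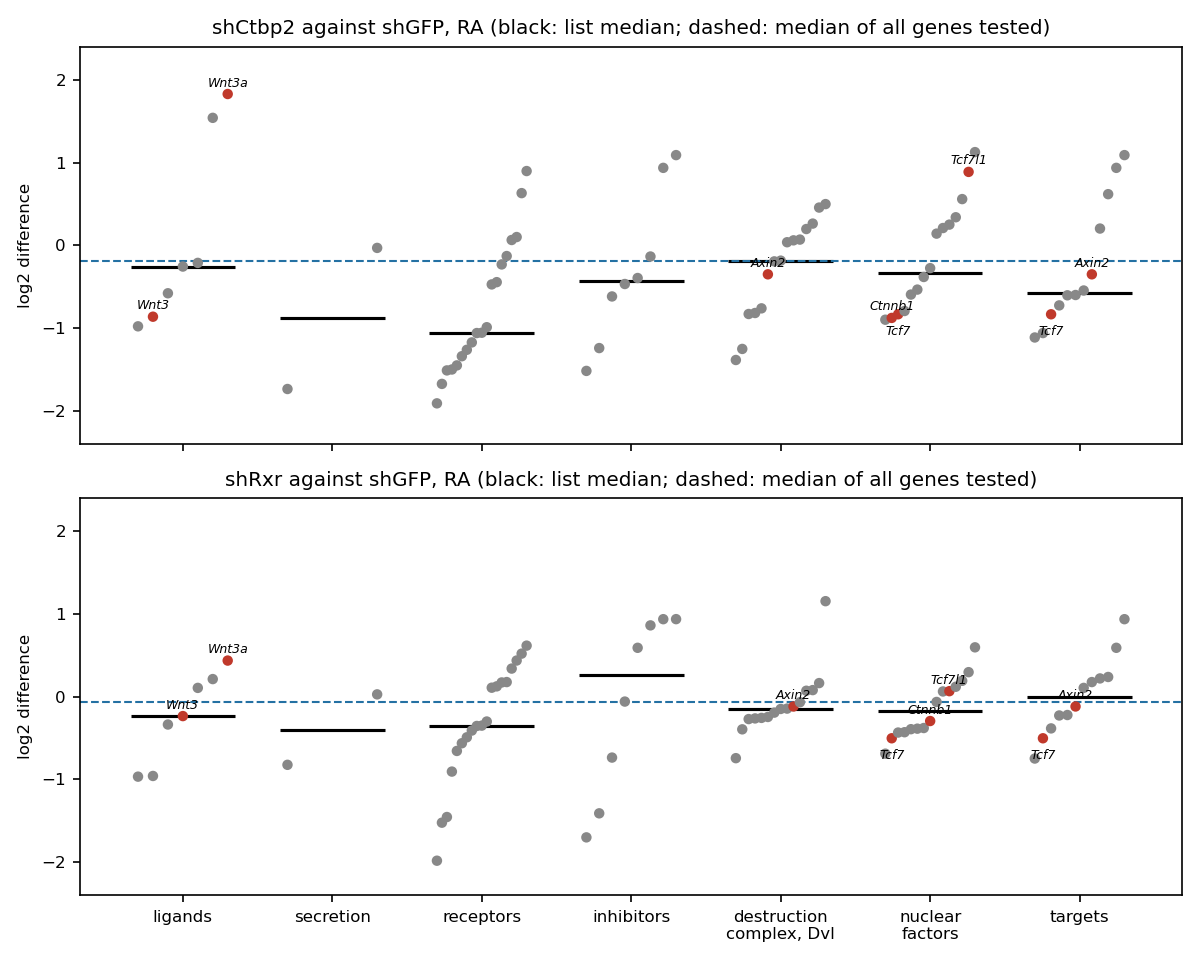
Difference from shGFP in RA on the log2(value + 10) scale for each tested gene of the 7 lists (1 point per gene, members in red), with shCtbp2 in the upper panel and shRxr in the lower one; black bars are list medians and the dashed line is the median of all genes tested. Axin2 and Tcf7 stand in 2 lists each, the targeted gene Ctbp2 is left out of the points, and the receptors have a median of -1.06 in shCtbp2 and -0.35 in shRxr.

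The genes whose levels ran most like a member's over the 6 libraries, after each gene was centred, came from 10824 genes whose mean reached 50 normalised reads. For Wnt3a they were Mgll and Islr2, with root mean square differences of 0.27 and 0.28 on the log2 scale. For Wnt3 they were Lrrc8c (0.17) and Ppp1r26 (0.18), for Tcf7 Iffo2 (0.11) and Nup210 (0.11), and for Tcf7l1 Hagh (0.05) and Nkain1 (0.05). Islr2, for one, had 480 and 1788 normalised reads in shGFP UT and RA, 1198 and 3726 for shCtbp2 and 777 and 1569 for shRxr, the same order of lines in UT as Wnt3a. This likeness rests on 6 libraries and is a description.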

How the data were processed

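Total RNA of the 6 F9 libraries was made into Illumina TruSeq libraries and sequenced on a HiSeq instrument, per the labels' protocols. TopHat 1.4, HTSeq and the mouse build mm9 are named in the submitters' processing notes. For the counting's strand setting nothing is given in the sources used here. As deposited, the values are log2 values per gene: within a tolerance of 1e-06, 100% of them are log2 of whole reads scaled to 10000000 per library plus 1, so normalised reads and read counts were recovered from them. The table holds 25904 genes, of which 23886 had a read.

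The 9 members and the gene lists were chosen with earlier results of these data known. The named genes are the members, the genes of 7 Wnt lists that passed limma or differed at least 2-fold between the libraries compared, and, for each member past the minimum whose log2 values spanned at least 1, the 2 genes of most similar pattern. Wnt9b was named after its values were seen, as the neighbour of Wnt3, and Wls, Porcn, Lgr4 and Lrp6 fall under the rule.

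Effects of RA, shCtbp2 and shRxr were fitted in 1 additive model of line and treatment with limma 3.58.1 (R 4.3.3; trend, 2 residual and 11.18 prior degrees of freedom) on log2(value + 10), for genes with a mean of 20 or more, with Benjamini-Hochberg adjustment over all of them at 0.05. The spread therefore includes any difference in RA response between lines. The fit was tested on simulated data. With 1 library per group no comparison inside a line or treatment was tested: folds have exact binomial 95% intervals for counting error only, and a group at 0 reads was set to 3 reads. GC content and exon length came from GENCODE M21 for 98.39% of tested genes and promoters from RefSeq, both of GRCm38. Gene coordinates are the mm9 ones of the table.

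Alternatives were the pseudocount, the minimum level, library scaling, voom on recovered reads, a GC and length correction, and leaving out each library or line. Tables and intervals were made in Python 3.11.15 (scipy 1.17.1, pandas 2.3.3, numpy 2.4.6) and figures with matplotlib 3.10.9.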

Additional observations from a re-analysis of the deposited data

Results flagged for a closer look

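Of the members, 3 had RA responses of opposite sign in different lines, with 1 library per group, so none of these differences was tested. Ctnnb1 was higher in RA in shGFP and shRxr and lower in shCtbp2: its log2 response in shCtbp2 minus that in shGFP was -0.95, and its response in shRxr minus that in shCtbp2 was 0.73. The same 2 pairs of lines stood apart for Axin2, at -0.81 and 0.78. Tcf7 was higher in RA in shGFP and shCtbp2 and lower in shRxr, by a response difference of -0.60 from shGFP and -0.66 from shCtbp2. Counting error alone covers the shGFP and shRxr responses of Axin2, the shRxr response of Ctnnb1 and the shGFP and shCtbp2 responses of Tcf7, whose fold intervals include 1. After the GC and length correction the log2 responses in shGFP, shCtbp2 and shRxr were -0.29, -1.26 and -0.07 for Axin2, and -0.14, -0.32 and -0.51 for Tcf7, all of one sign. For Ctnnb1 they were 0.02, -0.75 and -0.05. With upper quartile and median-of-ratios scaling, the RA responses of Axin2 in shGFP (-0.10 and -0.06) and shRxr (-0.08 and -0.09) and of Ctnnb1 in shRxr (-0.09 and -0.10) fell below 0, as did that of Tcf7 in shGFP with upper quartile scaling (-0.04).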

How the results depend on the processing

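No member's direction turned where its effect was called. Over all tested genes, RA raised 1327 and lowered 571 (69.9% raised). The counts were 566 and 246 at a minimum mean of 100, and the lowered count was 966 with upper quartile scaling (57.9% raised), 1043 with median-of-ratios scaling (55.9%) and 1278 with the GC and length correction (55.3%). Of the members 2 were raised, against 0 at the minimum of 100, where neither ligand was tested, and 1 after the GC correction. Of the Wnt lists, 22 rose and 7 fell, against 8 and 4 at the minimum of 100 and 13 lowered with the GC correction. For shCtbp2, 13 genes rose and 5 fell. These counts were 1 and 3 with pseudocount 1, with the minimum of 100 and with voom, 0 and 0 with no minimum, 42 and 44 with median-of-ratios scaling, 43 and 35 with upper quartile scaling, and 1 and 1 with the GC correction. For shRxr, 0 rose and 1 fell, and 0 fell with no minimum. The cause of these shifts was not tested. Leaving out a library or line gave 371 to 1754 raised and 86 to 1499 lowered by RA, 0 to 2 members raised, 8 to 26 list genes raised and 1 to 10 lowered, 0 to 243 raised and 0 to 1028 lowered in shCtbp2, and 0 to 5 raised and 0 to 20 lowered in shRxr; the lone library left in a line is then assumed to vary like the others. Over all genes the RA counts were lowest without shGFP UT or RA and highest without shRxr RA or UT, and 0 members were raised without shCtbp2 RA or the shCtbp2 line; the shCtbp2 counts were highest without shCtbp2 UT. The planned edgeR alternative was not run, since the deposited unit is log2. UT and RA are paired by line in the model itself. By replicate number no paired analysis was possible because each group has 1 library. With 21 reads or fewer in any library, Lef1 and Sp5 were limited by depth.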
